A study of Mus musculus with 24 samples.

Results

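The genes described here encode the structural proteins of the extracellular matrix and the integrin receptors that bind them: 44 collagen chains, 11 laminin chains, 18 integrin alpha and 9 integrin beta subunits, and Nid1, Nid2, Hspg2 and Sparc. They are the protein-coding genes whose GENCODE M21 symbols follow the naming of these families, 86 of the 21865 protein-coding genes and of the 53379 genes in the tables, and the choice rests on names alone. RNA was sequenced from E14 (E14Tg2a.IV) mouse embryonic stem cells and from the embryoid bodies they form in suspension without LIF, the cytokine that keeps them pluripotent. There were 5 groups of 2 libraries: wild-type (WT) stem cells at day 0, WT embryoid bodies at day 4, and day 4 embryoid bodies of the genotypes Smad2-/-, Smad3-/- and Smad2/3DKO, called below the Smad2 knockout, the Smad3 knockout and the double knockout. All groups carry the same E14 cell line label, the embryoid bodies mix cell types, and neither the number of clones behind a knockout nor separate cultures for the replicates are given in the sources used here. The p-values therefore measure the spread between these libraries, which may be technical.

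Basement membranes are sheets in which a laminin network and a type IV collagen network are joined by nidogen and by the proteoglycan perlecan (Hspg2), and every laminin is a trimer of an alpha, a beta and a gamma chain. The laminin of Lama1, Lamb1 and Lamc1 is the first to be laid down in the early mouse embryo, where the extraembryonic endoderm is a main source of basement membrane. Fibrillar collagens such as types I, III and V belong to the interstitial matrix of mesenchyme, and integrins are dimers of an alpha and a beta subunit that tie the cell to these proteins. SMAD2 and SMAD3 carry the signals of Nodal, Activin and TGF-beta to the genome.

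Gene values below are CPM, counts scaled to a common library total by the TMM method, unless TPM, which also divides by transcript length, is named. A gene is said to have risen or fallen, or to be called, where edgeR's quasi-likelihood test gave a Benjamini-Hochberg adjusted p under 0.05 over the 19470 genes tested, and errors are standard errors of the log2 fold change. The filter on low counts kept 79 of the 86 genes. Itga2, Itgad, Itgax, Itgb2l, Itgb6, Col10a1 and Col19a1 did not pass it.

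Total counts ran from 35733249 to 53672980 per library. The targeted genes were read in every library first. Smad2 RNA was at 19.1 and 22.0 CPM in the WT day 0 libraries, 49.9 and 38.3 in WT day 4, 19.2 and 20.4 in the Smad2 knockout, 38.3 and 39.3 in the Smad3 knockout and 22.2 and 22.7 in the double knockout. Smad3 RNA was at 8.57 and 10.2 CPM at day 0, 42.0 and 44.9 in WT day 4, 30.8 and 31.0 in the Smad2 knockout, 49.7 and 48.7 in the Smad3 knockout and 28.0 and 25.7 in the double knockout. Smad3 RNA was thus no lower in the libraries labelled Smad3 knockout than in WT, so it did not check that label, and the genotype names are those of the labels.

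The WT day 4 pair stood apart in these genes, and every comparison of a knockout with WT rests on it. It also enters the spread that all comparisons share. Of the 79 genes tested, 24 were more than 2-fold higher in its replicate 2 and 2 in its replicate 1, whereas in the other 4 groups at most 4 were higher in replicate 2 and at most 6 in replicate 1. The difference between the WT day 4 replicates ran with the GC content of the transcript, with a Spearman rho of 0.88 over the 79 genes and 0.77 over all 19447 tested genes with a known GC content. These genes have a median GC content of 53.8% and a median transcript of 5784 bases, against 49.7% and 2908 bases for all tested genes. Lama5, a laminin chain whose transcript is 59.9% GC, was at 175 and 568 CPM in the WT day 4 libraries and Hspg2 at 107 and 418, while the laminin chain Lamc1 was at 291 and 374. The Smad3 knockout pair leaned the same way, with a rho of 0.72 over the 79 genes. The naming of the deposited tables puts replicate 2 of WT day 0, WT day 4 and both single knockouts in a second series and both double knockout libraries in the first, and the labels do not say what the series are.

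**Figure D1:**
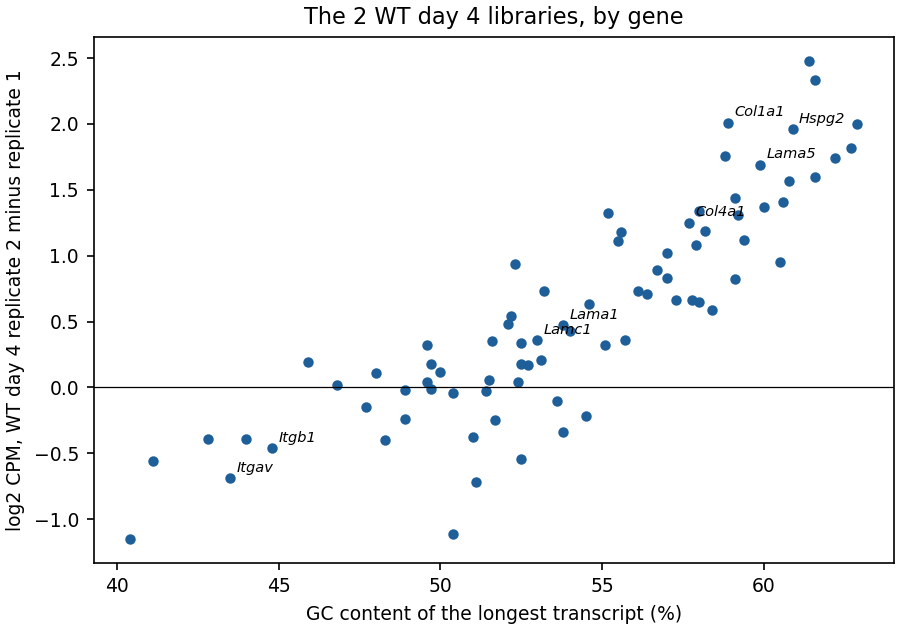
Difference between the 2 WT day 4 libraries (log2 CPM, replicate 2 minus replicate 1, vertical axis) against the GC content of the longest transcript (percent, horizontal axis) for the 79 matrix and integrin genes tested, 1 point per gene. The points climb from left to right (Spearman rho 0.88), and Hspg2 (107 and 418 CPM) and Lama5 (175 and 568 CPM) lie among the high ones.

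Promoters of 6 genes that the results below turn on are given first, because they allow pairs that moved together to be set side by side. The RefSeq table (GRCm38.p6) held 68 windows of 300 bases, from 250 before to 50 after a start, for 62 of the 86 genes. Each line gives the part of a window that lies outside any exon, 5′ to 3′ on the gene's strand. Capitals mark, on either strand, the SMAD box CAGAC, the GC box GGGCGG, the CCAAT box and TATAAA. The members of the first pair, Col4a5 (chrX:141475169-141475384, plus strand) and Col4a6 (chrX:141474077-141474326, minus strand), lie head to head and fell together in the double knockout. Nid1 (chr13:13437352-13437550, plus strand) and Itga5 (chr15:103366764-103367041, minus strand) rose there, and Col1a2 (chr6:4505370-4505492, plus strand) and Col3a1 (chr1:45311288-45311537, plus strand) rose in the Smad2 knockout.
Col4a5: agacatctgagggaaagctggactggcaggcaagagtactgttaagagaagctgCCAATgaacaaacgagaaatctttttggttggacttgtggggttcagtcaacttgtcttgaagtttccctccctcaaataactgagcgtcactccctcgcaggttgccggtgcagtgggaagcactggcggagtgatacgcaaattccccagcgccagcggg
Col4a6: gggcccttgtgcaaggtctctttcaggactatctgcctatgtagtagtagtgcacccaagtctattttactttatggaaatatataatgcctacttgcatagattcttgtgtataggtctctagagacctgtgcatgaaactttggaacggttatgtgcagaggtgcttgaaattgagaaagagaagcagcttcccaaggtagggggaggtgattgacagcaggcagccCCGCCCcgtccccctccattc
Nid1: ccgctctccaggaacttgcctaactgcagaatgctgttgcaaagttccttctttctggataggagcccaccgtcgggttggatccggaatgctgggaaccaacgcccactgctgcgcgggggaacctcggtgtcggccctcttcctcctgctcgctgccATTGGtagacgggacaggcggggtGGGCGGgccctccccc
Itga5: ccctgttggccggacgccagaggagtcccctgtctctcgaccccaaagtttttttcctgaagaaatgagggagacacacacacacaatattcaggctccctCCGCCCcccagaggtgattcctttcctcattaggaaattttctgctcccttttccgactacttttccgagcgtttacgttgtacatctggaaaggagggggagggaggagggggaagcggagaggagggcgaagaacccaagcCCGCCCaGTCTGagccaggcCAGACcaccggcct
Col1a2: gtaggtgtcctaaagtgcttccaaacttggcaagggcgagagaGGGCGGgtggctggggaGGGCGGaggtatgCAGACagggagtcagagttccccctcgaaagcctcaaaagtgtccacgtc
Col3a1: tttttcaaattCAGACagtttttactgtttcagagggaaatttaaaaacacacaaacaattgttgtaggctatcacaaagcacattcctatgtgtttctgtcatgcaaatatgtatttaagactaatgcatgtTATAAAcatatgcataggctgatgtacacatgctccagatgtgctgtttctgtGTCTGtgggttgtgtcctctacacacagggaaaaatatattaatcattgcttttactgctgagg
A SMAD box was present in 40 of the 68 windows (58.8%), against 49.6% of all 32851 windows of the same length. Above, Itga5 and Col3a1 each hold 2 and Col1a2 holds 1. Every motif was searched on both strands, and matches of different motifs may overlap. A GC box was in 54.4% of the windows of these genes and 35.7% of all, and GGCGCC in 13.2% and 11.9%. The CCAAT box was in 26.5% and 37.4%, TATAAA in 7.35% and 13.6%, the GATA motif AGATAA in 4.41% and 11.2%, and the FOXH1 motif, AATCCACA or AATACACA, in 2.94% and 1.82%. Matches to such short letters are a description of sequence and were not tested as sites.

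At day 0 the most abundant of these RNAs per length was Lama5, at 113 TPM ± 15 (SD, n = 2), followed by Nid2, at 92.5 ± 40, whose SDs overlap. Sparc, which encodes a collagen-binding protein of basement membranes, had the highest mean in each of the 4 day 4 groups, at 209 TPM ± 7.3 in WT, 147 ± 53 in the Smad2 knockout, 228 ± 5.0 in the Smad3 knockout and 324 ± 3.9 in the double knockout. In the Smad2 knockout its SD overlapped that of Lama5, at 107 ± 24, and in replicate 2 Col18a1, at 116 TPM, was above Sparc, at 110 TPM. The 86 genes together took 0.194% of counts at day 0, 0.369% in WT day 4, 0.278% in the Smad2 knockout, 0.434% in the Smad3 knockout and 0.540% in the double knockout. The WT day 4 libraries alone spanned 0.279% to 0.459%, a range that includes the Smad3 knockout's mean and overlaps the libraries of the Smad2 knockout, at 0.269% and 0.288%.

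From day 0 to day 4 of WT differentiation, 26 of the 79 genes rose and 18 fell. Called genes were thus 55.7% of these genes, against 52.1% of all genes tested (28.9% higher and 23.2% lower), so the share is close to the background. Of the type IV collagen chains 5 of 6 rose, with a median log2 fold change of 3.83 over the 6, against 0.10 over all genes tested. Of the laminins, Lama1, Lamb1, Lamc1 and Lamc3 rose. Scaled by library totals, 30 rose and 12 fell. Without WT day 0 replicate 1, 27 genes were called. In bulk RNA of mixed cells, fewer cells of a type and less RNA per cell cannot be told apart, here and in every comparison below.

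Against WT at day 4, the Smad2 knockout had 16 genes higher and 14 lower, the Smad3 knockout 1 and 1, and the double knockout 14 and 10. The called shares were 38.0% in the Smad2 knockout, 2.53% in the Smad3 knockout and 30.4% in the double knockout, beside 35.5%, 0.555% and 23.1% of all genes tested. By direction, the background was 15.4% higher and 20.1% lower in the Smad2 knockout, 0.431% and 0.123% in the Smad3 knockout and 10.8% and 12.3% in the double knockout. In the Smad2 knockout 5 of 11 fibrillar collagens rose, with a median log2 fold change of 0.94 over the 11, and 4 of 11 laminins fell, with a median of -0.55. The median over all genes tested was -0.01. In the double knockout 5 of 22 integrins tested rose and 3 fell. The balance of directions depended on the scaling. Corrected for length and GC content, the Smad2 knockout had 25 genes higher and 8 lower, the Smad3 knockout 9 and 1, and the double knockout 26 and 12, and scaled by library totals the Smad3 knockout had 4 and 1. Over all genes tested, the difference between Smad2 knockout and WT ran with transcript length (Spearman rho -0.45) and GC content (0.37). The counts also moved with single libraries. Leaving out WT day 4 replicate 2 gave 45, 26 and 39 called genes in the 3 knockouts. Leaving out double knockout replicate 1 or 2 gave 14 or 13 in that comparison, and the Smad3 knockout's 2 calls (14 with DESeq2) fell to 1 or 0 without WT day 4 replicate 1, either WT day 0 library, either Smad3 knockout library or either double knockout library, and came to 3 without either Smad2 knockout library.

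**Figure D2:**
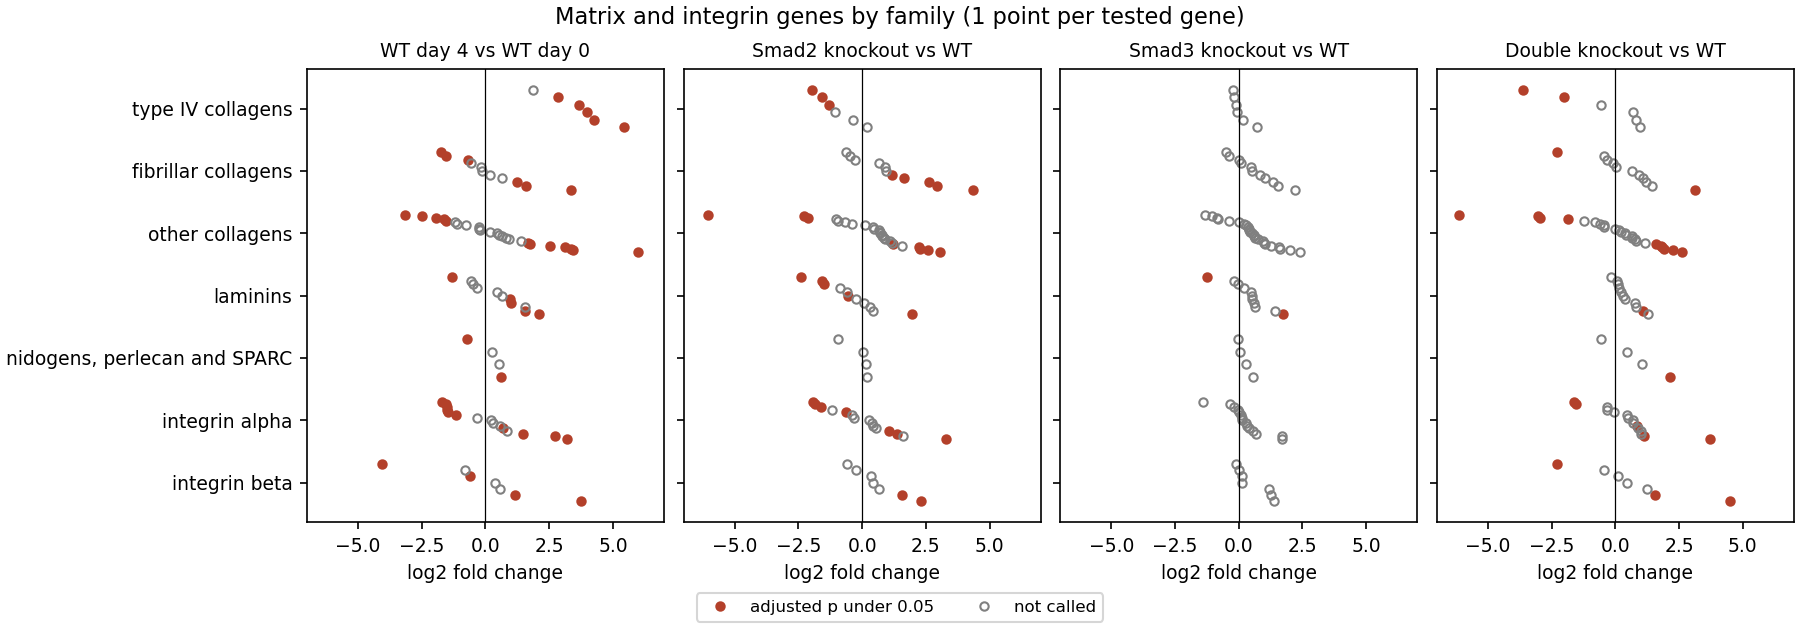
Log2 fold changes (horizontal axis) of the 79 genes tested, by family, for WT day 4 against day 0 and for each knockout against WT at day 4, 1 point per gene. Filled points have an edgeR adjusted p under 0.05: 44, 30, 2 and 24 genes from left to right, and the points of Col28a1, Col4a4, Col24a1 and Col14a1 rest on groups with 0 to 3 counts.

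The 3 knockouts also differed from each other. The Smad2 knockout had 7 genes higher and 12 lower than the Smad3 knockout (33.6% of all genes tested were called, 15.7% higher and 17.9% lower). The double knockout had 14 higher and 8 lower than the Smad2 knockout (39.6% of all genes, 20.5% and 19.1%) and 7 higher and 7 lower than the Smad3 knockout (15.5%, 7.53% and 8.01%). Called genes were 24.1%, 27.8% and 17.7% of the matrix and integrin genes tested, in that order. These shares were below those of all genes where the Smad2 knockout was compared, and close to the background for the double against the Smad3 knockout. Corrected for length and GC content, the balance turned to 17 higher and 11 lower in the first of these comparisons and to 13 higher and 21 lower in the second, while library totals gave 6 and 23, and 17 and 5. In the third 24 were called without WT day 4 replicate 1 and 25 without replicate 2, and 7 or 8 without either Smad3 knockout or either double knockout library. The comparison of the single knockouts fell to 12 and 11 without Smad3 knockout replicate 1 and replicate 2, and that of the double with the Smad2 knockout to 14 and 12 without double knockout replicate 1 and replicate 2, and rose to 33 without either WT day 4 library.

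Laminin chains were read first. Lama1 (chr17:67697259-67822647, plus strand, mm10), the alpha chain of the early embryonic laminin, was at 51.4 and 52.1 CPM at day 0, 127 and 176 in WT day 4, 27.0 and 30.3 in the Smad2 knockout, 62.4 and 66.4 in the Smad3 knockout and 201 and 186 in the double knockout. The 2 single knockouts lay below both WT day 4 libraries, the Smad2 knockout also below day 0, and the double knockout above all others. Lama1 rose with differentiation by 1.55 ± 0.18 on the log2 scale (edgeR adjusted p = 0.000235) and fell by 2.40 ± 0.19 in the Smad2 knockout (adjusted p = 0.000258). It fell by 1.23 ± 0.18 in the Smad3 knockout (adjusted p = 0.0321), a call lost without any 1 of the WT day 0, Smad3 knockout or double knockout libraries, with values from -1.42 to -0.98 and adjusted p up to 0.314. The double knockout was 0.36 ± 0.18 above WT and was not called (adjusted p = 0.191), or 0.60 with an adjusted p of 0.0187 without WT day 4 replicate 2. It was 2.76 ± 0.19 above the Smad2 knockout (adjusted p = 0.000128) and 1.59 ± 0.18 above the Smad3 knockout (adjusted p = 0.000808).

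The beta and gamma partners of Lama1 moved less. Lamb1 was at 144 and 157 CPM at day 0, 269 and 341 in WT day 4, 188 and 229 in the Smad2 knockout, 291 and 308 in the Smad3 knockout and 370 and 312 in the double knockout. Lamc1 was at 140 and 198, 291 and 374, 97.5 and 137, 277 and 301, and 359 and 330 CPM in the same order. Both chains were lower in the Smad2 knockout than in the other day 4 groups, with no overlap. Lamc1 fell there by 1.50 ± 0.24 on the log2 scale (edgeR adjusted p = 0.00251), and Lamb1 by 0.55 ± 0.19 (adjusted p = 0.0467). The Lamb1 call held in only 2 of 10 fits with a library left out, those without replicate 1 of WT day 4 and replicate 2 of the Smad2 knockout, and the values with 1 library left out ran from -0.70 to -0.37, with adjusted p up to 0.196. The call was also lost with no filter, with the compared groups fitted alone and with the length and GC correction, which gave -0.09. In TPM, Lama1 was 0.0744 and 0.0704 of Lamc1 at day 0, 0.267 and 0.339 in WT day 4, 0.0617 and 0.0607 in the Smad2 knockout, 0.147 and 0.160 in the Smad3 knockout and 0.390 and 0.371 in the double knockout. The alpha chain thus varied more than its partner, in the order Smad2 knockout, day 0, Smad3 knockout, WT day 4, double knockout.

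**Figure D3:**
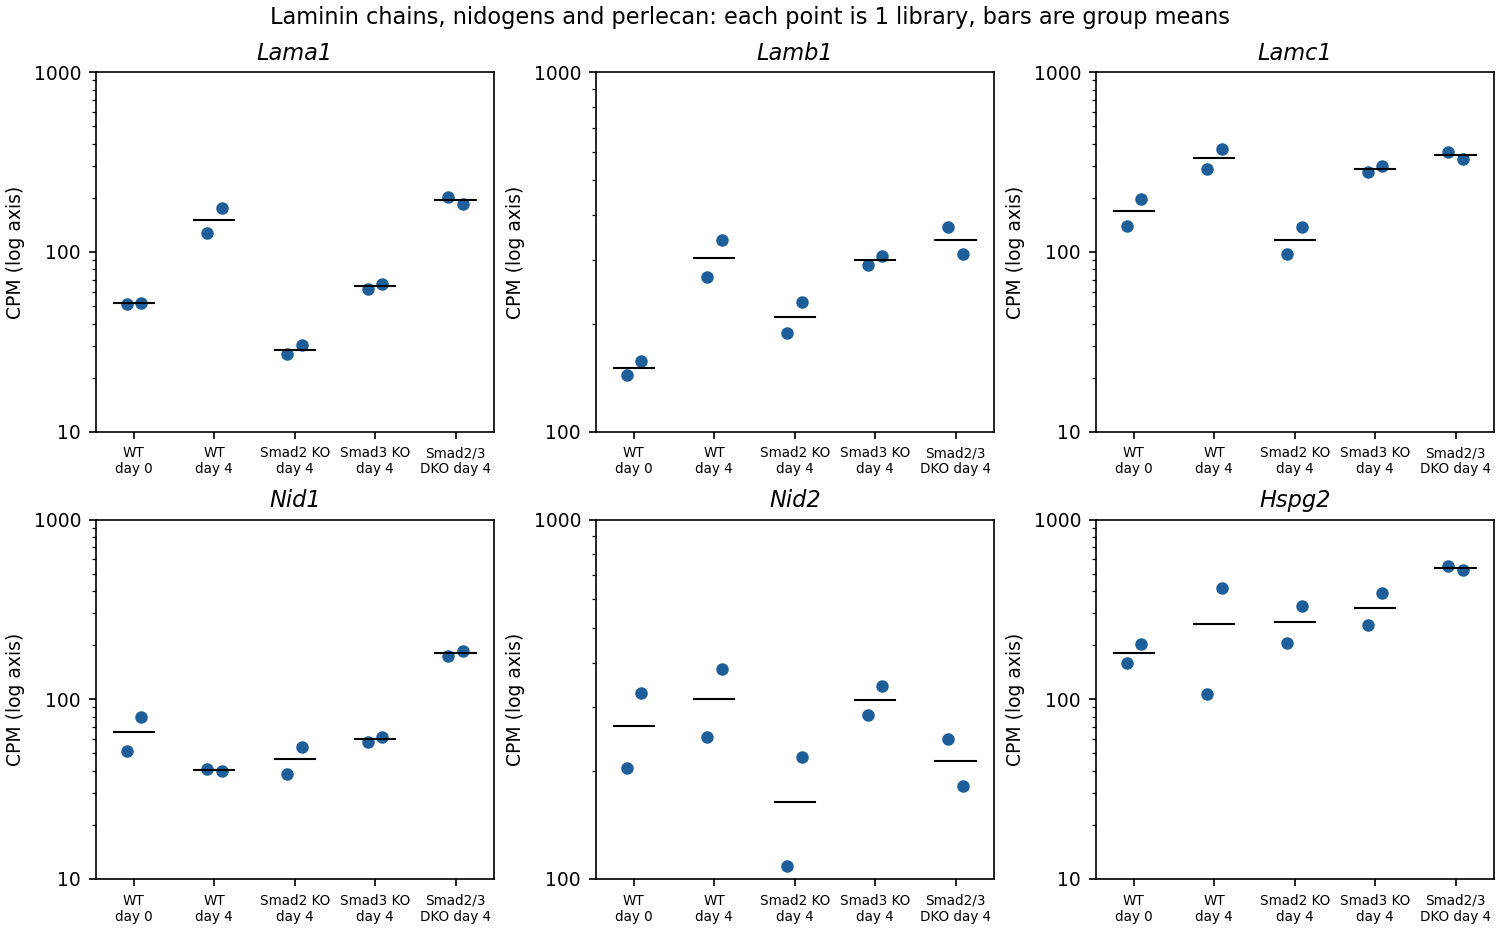
CPM (log axis) of 3 laminin chains, 2 nidogens and perlecan in the 5 groups, 1 point per library with the group mean as a bar. Lama1 is lowest in the Smad2 knockout (27.0 and 30.3 CPM), Nid1 is highest in the double knockout (174 and 186), and the WT day 4 points of Hspg2 lie far apart (107 and 418).

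Other laminin chains took separate courses. Lama5, the main alpha chain of stem cells and later embryonic basement membranes, was at 209 and 266 CPM at day 0, 202 and 283 in the Smad2 knockout, 351 and 504 in the Smad3 knockout and 445 and 356 in the double knockout, and the WT day 4 pair of 175 and 568 spans all of these. Its change of 0.65 ± 0.45 from day 0 to day 4 was not called (edgeR adjusted p = 0.256), and without WT day 4 replicate 2 it was -0.43 (adjusted p = 0.240) and without replicate 1 it was 1.21 (adjusted p = 0.00598). In TPM, Lama5 exceeded Lama1 by 31.6 and 20.8 times at day 0, 3.03 and 3.74 in WT day 4, 46.6 and 34.5 in the Smad2 knockout, 6.94 and 6.91 in the Smad3 knockout and 2.43 and 3.18 in the double knockout. Lama3, an alpha chain of epithelial basement membranes, fell in the Smad2 knockout, from 3.89 and 3.26 CPM in WT to 0.900 and 1.45 (log2 -1.59 ± 0.33, edgeR adjusted p = 0.00634), a call lost when length and GC content were corrected.

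Type IV collagen is made of 6 chains encoded in 3 head-to-head pairs. Col4a1 (chr8:11198423-11312826, minus strand) and Col4a2 (chr8:11312805-11449287, plus strand) encode the network found in nearly all basement membranes. Col4a1 was at 13.5 and 18.5 CPM at day 0, 152 and 361 in WT day 4, 89.1 and 82.0 in the Smad2 knockout, 188 and 262 in the Smad3 knockout and 515 and 386 in the double knockout. Col4a2 was at 9.59 and 10.7, 69.8 and 186, 67.6 and 54.6, 90.5 and 129, and 274 and 219 CPM in the same order. Day 0 was the lowest group for both and the double knockout the highest, with no overlap. They rose from day 0 to day 4 by 4.00 ± 0.41 and 3.66 ± 0.43 on the log2 scale (edgeR adjusted p = 0.000119 and 0.000216).

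Among the day 4 groups, Col4a1 fell in the Smad2 knockout by 1.58 ± 0.37 on the log2 scale (edgeR adjusted p = 0.0114), and the values with 1 library left out ran from -2.01 to -0.83. That call was lost when either Smad2 knockout library was left out, with an adjusted p up to 0.0631. Col4a2 was lower by a value that was not called (log2 -1.07 ± 0.39, adjusted p = 0.0585) and that was -0.19 (adjusted p = 0.555) without WT day 4 replicate 2 and -1.54 (adjusted p = 0.00300) without replicate 1, and it was called in 7 of 21 alternatives. In the double knockout, Col4a1 was 0.81 ± 0.37 and Col4a2 0.95 ± 0.39 above WT, not called (adjusted p = 0.143 and 0.111). They were called in 5 and 7 of 21 alternatives, both of them without WT day 4 replicate 2, at 1.56 and 1.81 (adjusted p = 0.00400 and 0.00145). Against the Smad2 knockout the double knockout was 2.40 ± 0.38 higher for Col4a1 (adjusted p = 0.0019) and 2.01 ± 0.40 for Col4a2 (adjusted p = 0.00466), and both calls held when each of the 10 libraries was left out. The ratio of Col4a1 to Col4a2 in TPM stayed between 1.48 and 2.30 in the 10 libraries.

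The pair on the X chromosome behaved differently. Col4a5 (chrX:141475385-141689234) was at 0.627 and 0.500 CPM at day 0, 4.00 and 4.18 in WT day 4, 1.88 and 1.45 in the Smad2 knockout, 4.13 and 3.78 in the Smad3 knockout and 1.43 and 0.580 in the double knockout. Col4a6 (chrX:141165403-141474076) was at 0.120 and 0.132, 2.56 and 2.38, 1.06 and 0.235, 2.26 and 2.34, and 0.208 and 0.186 CPM. The Smad3 knockout lay at the WT level for both genes and the double knockout nearer day 0 than WT day 4. In the double knockout Col4a6 fell by 3.63 ± 0.62 on the log2 scale (edgeR adjusted p = 0.00307). Col4a5 fell there by 2.01 ± 0.41 (adjusted p = 0.00735). Both calls held in every alternative that tested the genes, which were under the filter of the fits on TPM. The 2 genes also fell in the Smad2 knockout, by 1.95 ± 0.56 (adjusted p = 0.0240) and 1.30 ± 0.40 (adjusted p = 0.0320). Those 2 calls were lost when length and GC content were corrected. Without WT day 4 replicate 1 the Col4a6 call was lost (adjusted p = 0.0691), and the Col4a5 call was lost without either WT day 4, either Smad2 knockout or either Smad3 knockout library (adjusted p up to 0.131). So the chains on chromosome 8 were highest in the double knockout, where the chains on X were lowest among the day 4 groups. Col4a4 had 0 counts in the day 0 libraries together and 11 in WT day 4, which makes day 4 at least 3.05-fold higher when the group at 0 is set to 3 counts in all.

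**Figure D4:**
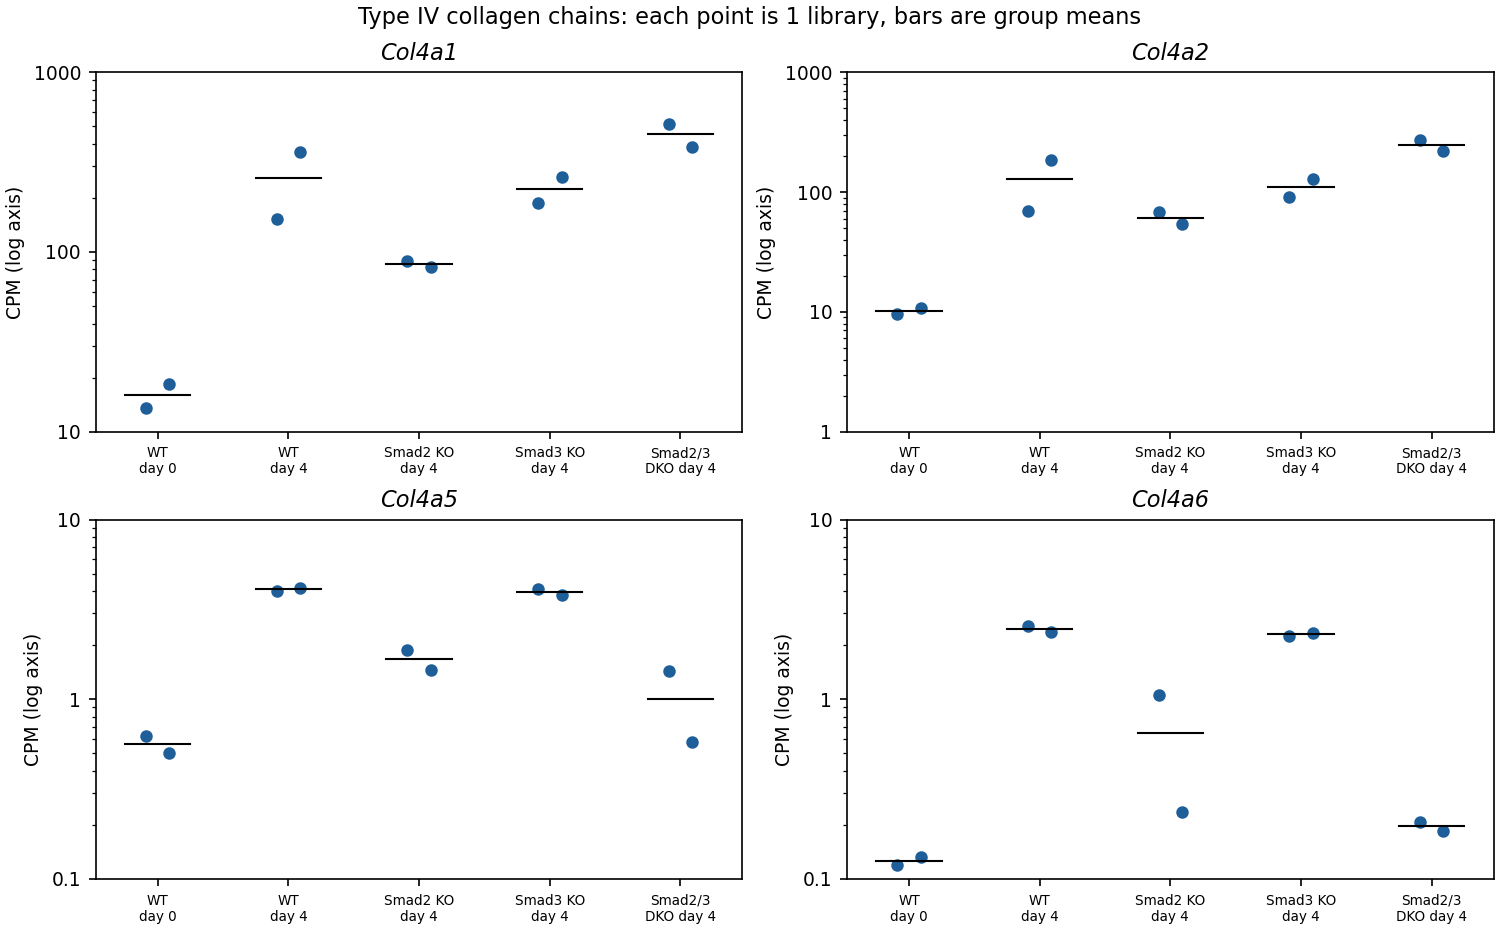
CPM (log axis) of 4 type IV collagen chains in the 5 groups, 1 point per library with the group mean as a bar. Col4a1 and Col4a2 are highest in the double knockout (515 and 386, 274 and 219 CPM), where Col4a5 (1.43 and 0.580) and Col4a6 (0.208 and 0.186) lie below WT day 4.

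Of the linkers of the basement membrane, nidogen-1 (Nid1, chr13:13437551-13512269, plus strand) binds laminin and type IV collagen. Its RNA was at 51.7 and 79.9 CPM at day 0, 40.9 and 39.8 in WT day 4, 38.2 and 54.3 in the Smad2 knockout, 58.0 and 61.9 in the Smad3 knockout and 174 and 186 in the double knockout. The double knockout lay above all other libraries. It was higher than WT by 2.16 ± 0.24 on the log2 scale (edgeR adjusted p = 0.000382), than the Smad2 knockout by 1.96 ± 0.24 (adjusted p = 0.000709) and than the Smad3 knockout by 1.58 ± 0.24 (adjusted p = 0.00255), and these 3 calls held in every alternative run. Its relative Nid2 was at 204 and 330 CPM at day 0, 248 and 385 in WT day 4, 109 and 218 in the Smad2 knockout, 286 and 345 in the Smad3 knockout and 245 and 181 in the double knockout, and was not called in any knockout against WT. The TPM ratio of Nid1 to Nid2 was 0.478 and 0.683 in the double knockout and between 0.0668 and 0.155 in the other 8 libraries.

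Perlecan, the heparan sulfate proteoglycan encoded by Hspg2, was at 159 and 203 CPM at day 0, 205 and 332 in the Smad2 knockout, 258 and 389 in the Smad3 knockout and 549 and 521 in the double knockout, beside the WT day 4 pair of 107 and 418. In CPM the double knockout was the highest group without overlap, whereas in TPM its 64.9 and 76.5 overlapped the Smad2 knockout's 56.6 and 76.2. The difference from WT of 1.03 ± 0.52 on the log2 scale was not called (edgeR adjusted p = 0.189). It was called in 4 of 21 alternatives, at 2.31 (adjusted p = 0.00180) without WT day 4 replicate 2. Sparc was at 197 and 182 CPM at day 0, 273 and 309 in WT day 4, 395 and 261 in the Smad2 knockout, 301 and 304 in the Smad3 knockout and 406 and 391 in the double knockout. It rose by 0.62 ± 0.20 with differentiation (adjusted p = 0.0295), a call lost without any 1 of 7 libraries (either WT day 0, WT day 4 replicate 2, either Smad3 knockout or either double knockout; adjusted p up to 0.129), and no knockout was called against WT.

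Among fibrillar collagens, Col1a1, Col1a2, Col3a1, Col5a1 and Col5a2 rose in the Smad2 knockout. Col1a2, the second chain of type I collagen, was at 4.66 and 4.90 CPM at day 0, 2.61 and 3.38 in WT day 4, 23.6 and 22.1 in the Smad2 knockout, 4.95 and 5.68 in the Smad3 knockout and 4.15 and 5.36 in the double knockout. The Smad2 knockout lay above all other libraries and WT day 4 below them. It exceeded WT by 2.93 ± 0.25 on the log2 scale (edgeR adjusted p = 0.000328), the Smad3 knockout by 2.10 ± 0.24 (adjusted p = 0.00135), and the double knockout was 2.26 ± 0.24 below it (log2 -2.26, adjusted p = 0.000438), all of which held in every alternative run. The double knockout was 0.67 ± 0.24 above WT and was not called (adjusted p = 0.0709), but was called without WT day 4 replicate 2 (log2 0.86, adjusted p = 0.0377) and with DESeq2 (log2 0.72, adjusted p = 0.0362).

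Col1a1, the first chain of type I collagen, was at 6.60 and 9.45 CPM at day 0, 1.03 and 4.45 in WT day 4, 16.3 and 17.5 in the Smad2 knockout, 10.0 and 14.9 in the Smad3 knockout and 6.54 and 5.15 in the double knockout. Every knockout library lay above both WT day 4 libraries. The rise in the Smad2 knockout was 2.63 ± 0.55 on the log2 scale (edgeR adjusted p = 0.00725), or 4.04 without WT day 4 replicate 2 and 1.99 without replicate 1. The Smad3 knockout was 2.19 ± 0.55 and the double knockout 1.10 ± 0.54 above WT, neither of them called (adjusted p = 0.108 and 0.176). They were called in 5 and 4 of 21 alternatives, and without WT day 4 replicate 2 were 3.60 (adjusted p = 0.0114) and 2.50 (adjusted p = 0.00185).

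Col3a1 (chr1:45311538-45349706, plus strand), the chain of type III collagen, was under 0.3 CPM in 3 of the 5 groups. It was at 0.149 and 0.263 CPM at day 0, 0.183 and 0.0951 in WT day 4, 2.41 and 3.41 in the Smad2 knockout, 0.0666 and 0.148 in the Smad3 knockout and 1.56 and 0.928 in the double knockout. It rose in the Smad2 knockout by 4.36 ± 0.56 (edgeR adjusted p = 0.00119) and in the double knockout by 3.13 ± 0.55 (adjusted p = 0.00357), and both were also above the Smad3 knockout (4.74 ± 0.58 and 3.52 ± 0.57, adjusted p = 0.00153 and 0.00366). All 4 calls held in every alternative that tested the gene. The fits on TPM did not, as its mean TPM was under their filter. Col5a1, the first chain of type V collagen, was at 10.8 and 27.4 CPM in WT day 4, 63.0 and 57.6 in the Smad2 knockout, 37.5 and 60.0 in the Smad3 knockout and 45.7 and 41.1 in the double knockout. It rose in the Smad2 knockout by 1.66 ± 0.40 (adjusted p = 0.0127), a call lost without Smad2 knockout replicate 1 (adjusted p = 0.0556). Col5a2, the second chain of type V collagen, was at 1.81 and 2.28 CPM in WT day 4 and 6.38 and 2.82 in the Smad2 knockout (log2 1.17 ± 0.40, adjusted p = 0.0483), and this call was lost in 13 alternatives, 9 of them with 1 library left out, at 0.46 without Smad2 knockout replicate 1. The Smad3 knockout, at 5.91 and 5.97 CPM, also lay above both WT libraries but was not called. The double knockout was at 1.27 and 1.72 CPM. Levels of these genes were low: per length, no fibrillar collagen was among the 12 most abundant of the 86 genes in any group.

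Other collagens gave both the widest and the lowest values. Col6a1, a chain of the beaded filaments of type VI collagen, was at 0.866 and 0.737 CPM at day 0, 1.76 and 3.35 in WT day 4, 9.14 and 15.5 in the Smad2 knockout, 6.73 and 9.16 in the Smad3 knockout and 16.7 and 14.3 in the double knockout. It rose in the Smad2 knockout by 2.27 ± 0.37 (edgeR adjusted p = 0.00281) and in the double knockout by 2.60 ± 0.38 (adjusted p = 0.00136). Col23a1, a transmembrane collagen, went down in the same 2 groups, from 5.95 and 7.44 CPM in WT to 1.67 and 1.43 in the Smad2 knockout and 0.914 and 0.789 in the double knockout, with 6.35 and 7.11 in the Smad3 knockout and 0.956 and 0.606 at day 0. Its changes were -2.11 ± 0.30 and -2.97 ± 0.32 on the log2 scale (adjusted p = 0.00174 and 0.000283). The Col6a1 and Col23a1 calls in these 2 groups held in every alternative that tested them. Col23a1 was under the filter of the fits on TPM and was not tested there. Col12a1, whose product binds type I fibrils, rose from 0.755 and 0.547 CPM in WT to 3.89 and 2.26 in the Smad2 knockout (log2 2.23 ± 0.46, adjusted p = 0.00641). The Smad3 knockout, at 3.20 and 3.80 CPM, also lay above WT but was not called. The double knockout, at 1.58 and 2.97 CPM, was called higher than WT. That call was lost without WT day 4 replicate 2 or double knockout replicate 2.

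Col14a1, a relative of Col12a1, had 84 counts in the WT day 4 libraries together, 41 in the Smad3 knockout and 1 each in the Smad2 and the double knockout. WT exceeded the Smad2 knockout 82.9 times (exact 95% interval from 14.5 to 3310) and the double knockout 89.4 times (15.6 to 3570), intervals that cover counting error only. Col28a1 had 0 counts at day 0 and 16 in WT day 4, at least 4.44-fold higher, and Col24a1 had 3 and 39 counts, a ratio of 10.8 (3.44 to 54.8). Col17a1, a collagen of hemidesmosomes, fell with differentiation from 3.02 and 3.42 CPM to 0.732 and 1.38, and in the double knockout was back at 4.26 and 3.60 (log2 1.89 ± 0.38 against WT, edgeR adjusted p = 0.00673). Col18a1, the basement membrane collagen that yields endostatin, was at 295 and 372 CPM at day 0, 145 and 430 in WT day 4, 427 and 631 in the Smad2 knockout, 284 and 414 in the Smad3 knockout and 389 and 290 in the double knockout. The WT day 4 pair overlapped every other group, and the gene was not called in any of these comparisons.

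Among the integrins, Itgb3 separated all 5 groups in CPM. In TPM, day 0, at 0.510 and 0.780, overlapped WT day 4, at 0.640 and 0.830. The beta-3 subunit (chr11:104608000-104670476, plus strand) pairs with alpha-v to bind vitronectin and other ligands with an RGD motif. Its RNA was at 4.00 and 4.92 CPM at day 0, 2.42 and 3.42 in WT day 4, 14.4 and 15.1 in the Smad2 knockout, 6.60 and 6.69 in the Smad3 knockout and 65.7 and 64.7 in the double knockout. All knockouts lay above WT and day 0. The differences from WT were 2.33 ± 0.22 on the log2 scale in the Smad2 knockout (edgeR adjusted p = 0.000401), 1.18 ± 0.21 in the Smad3 knockout, not called (adjusted p = 0.0504), and 4.48 ± 0.23 in the double knockout (adjusted p = 1.49e-05). The Smad3 value was called in 8 of 21 alternatives, among them the fit without WT day 4 replicate 2 (1.45, adjusted p = 0.0119) and DESeq2 (1.22, adjusted p = 6.41e-05). The double knockout also exceeded the Smad2 knockout by 2.15 ± 0.21 (adjusted p = 0.000333) and the Smad3 knockout by 3.29 ± 0.22 (adjusted p = 8.85e-05).

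Itgav, which encodes the alpha-v partner, was at 17.3 and 14.4 CPM at day 0, 54.9 and 34 in WT day 4, 40.2 and 31.4 in the Smad2 knockout, 50.9 and 44.2 in the Smad3 knockout and 80.4 and 80.1 in the double knockout. In CPM the double knockout was the highest group, while WT day 4 overlapped both single knockouts. In TPM it was at 20.6 and 21.8, between the Smad2 knockout libraries at 35.0 and 9.05. Its rise of 0.85 ± 0.24 on the log2 scale in the double knockout (edgeR adjusted p = 0.0322) was lost without any 1 of 7 libraries (either WT day 0, WT day 4 replicate 2, either Smad3 knockout or either double knockout), with values from 0.54 to 1.30 and adjusted p up to 0.139. In TPM, Itgb3 was 0.912 and 0.865 of Itgav in the double knockout and between 0.0353 and 0.240 of it elsewhere. Itga2b, the platelet partner of beta-3, was at 0.983 and 2.38 CPM in WT day 4, 4.61 and 4.05 in the Smad2 knockout, 1.35 and 2.34 in the Smad3 knockout and 3.24 and 3.46 in the double knockout. Its rise of 1.37 ± 0.42 in the Smad2 knockout (adjusted p = 0.0319) held with 3 of the 10 libraries left out in turn, among them WT day 4 replicate 2, and adjusted p went up to 0.104 without the others.

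**Figure D5:**
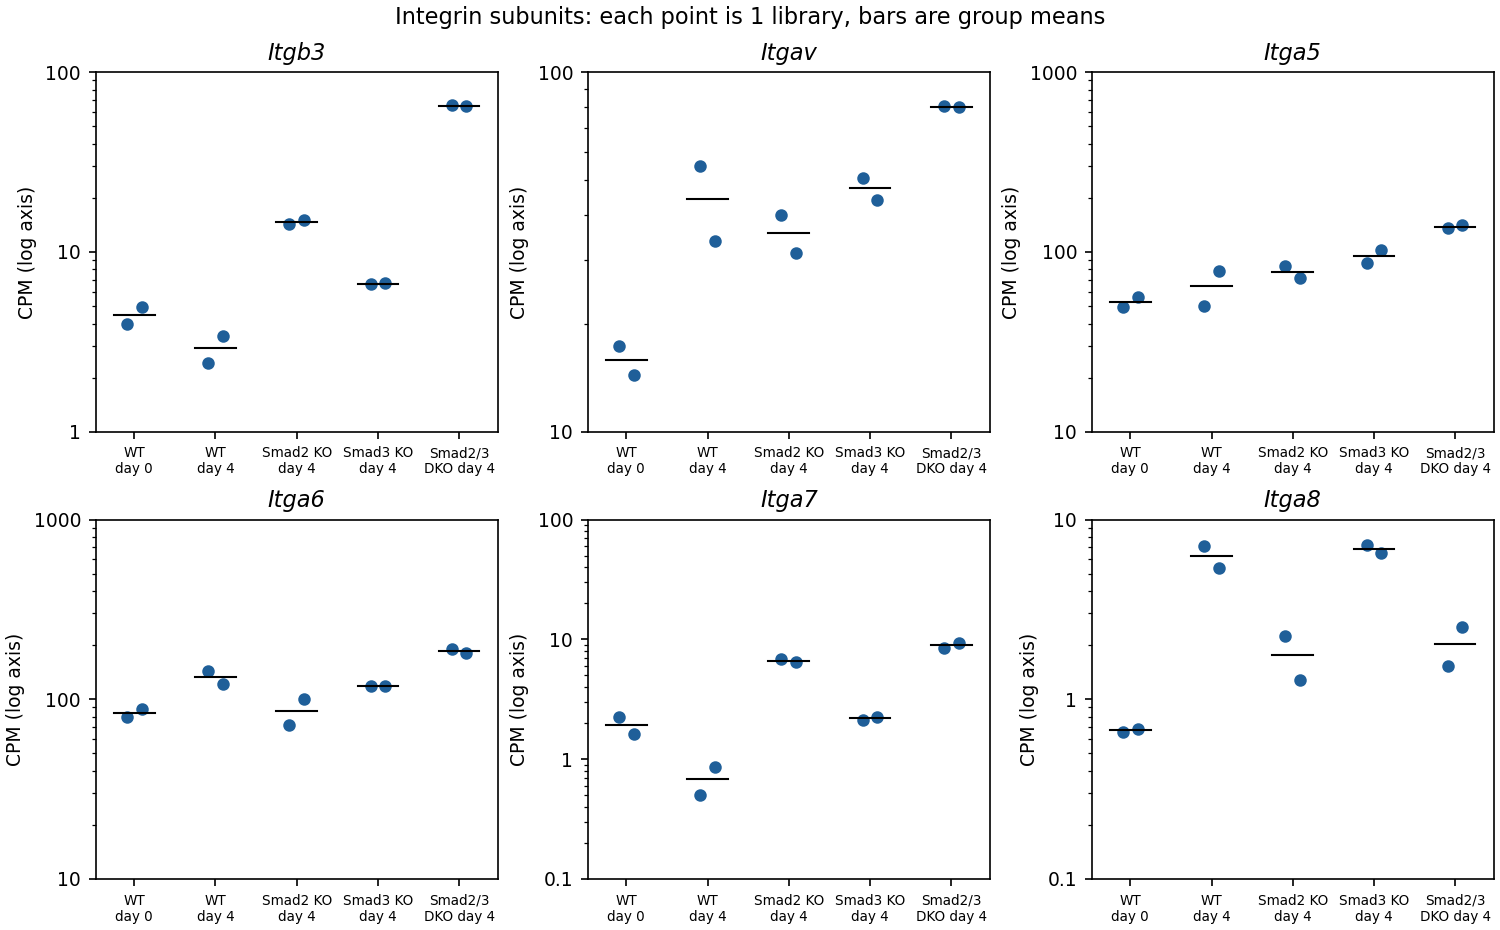
CPM (log axis) of 6 integrin subunits in the 5 groups, 1 point per library with the group mean as a bar. Itgb3 is at 65.7 and 64.7 CPM in the double knockout and at most 15.1 elsewhere, and Itga8 is at 5.40 to 7.19 in WT day 4 and the Smad3 knockout and at most 2.53 in the other groups.

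Laminin and fibronectin receptors followed. Itgb1, the partner of most alpha subunits, rose from 125 and 144 CPM at day 0 to 351 and 256 in WT day 4 (log2 1.17 ± 0.20, edgeR adjusted p = 0.00116), and was at 279 and 235 in the Smad2 knockout, 344 and 313 in the Smad3 knockout and 319 and 324 in the double knockout. In CPM the WT day 4 pair overlapped or enclosed these values, and no knockout was called. In TPM the Smad2 knockout, at 70.5 and 52.6, lay below WT day 4, at 143 and 98.5. The median difference between these 2 groups over all genes in the fit on log2(TPM + 1) was -0.51. Itga6, whose product binds laminin, was at 79.7 and 88.0 CPM at day 0, 144 and 122 in WT day 4, 72.3 and 99.9 in the Smad2 knockout, 119 and 118 in the Smad3 knockout and 190 and 180 in the double knockout. It was 1.10 ± 0.19 higher in the double than in the Smad2 knockout on the log2 scale (adjusted p = 0.00247), which held in every alternative run. Itga7, another laminin receptor subunit, was at 2.24 and 1.63 CPM at day 0, 0.503 and 0.856 in WT day 4, 6.83 and 6.44 in the Smad2 knockout, 2.13 and 2.25 in the Smad3 knockout and 8.49 and 9.35 in the double knockout. All knockout libraries lay above WT. The Smad2 knockout exceeded it by 3.28 ± 0.33 (adjusted p = 0.000567) and the double knockout by 3.71 ± 0.33 (adjusted p = 0.000118). The Smad3 knockout's 1.69 ± 0.32 was not called (adjusted p = 0.0569), but was called in 7 of 21 alternatives, among them DESeq2 (1.72, adjusted p = 0.00045), the length and GC correction (1.45) and the fit without WT day 4 replicate 2 (2.11, adjusted p = 0.0154).

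Itga5, the alpha subunit of the fibronectin receptor, was at 49.6 and 56.1 CPM at day 0, 49.9 and 78.8 in WT day 4, 83.8 and 71.5 in the Smad2 knockout, 87.3 and 103 in the Smad3 knockout and 136 and 141 in the double knockout. Only the double knockout was called against WT (log2 1.11 ± 0.22, edgeR adjusted p = 0.00706), a call lost without double knockout replicate 2 (adjusted p = 0.0504). Itga3 was at 35.4 and 75.0 CPM in WT day 4, 114 and 116 in the Smad2 knockout, 84.5 and 93.0 in the Smad3 knockout and 93.3 and 84.6 in the double knockout, and was called in the Smad2 knockout (1.06 ± 0.30, adjusted p = 0.0228), but not without either Smad2 knockout library (adjusted p up to 0.0750). Itgb5 was at 32.2 and 65.3, 70.8 and 59.6, 48.4 and 59.2, and 37.0 and 34.3 CPM in the same groups and was not called against WT.

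Itga8, whose product binds nephronectin, and Itga1, a collagen receptor subunit, rose with differentiation and fell in the Smad2 knockout and the double knockout. Itga8 was at 0.657 and 0.685 CPM at day 0, 7.09 and 5.40 in WT day 4, 2.25 and 1.28 in the Smad2 knockout, 7.19 and 6.47 in the Smad3 knockout and 1.54 and 2.53 in the double knockout. It fell by 1.83 ± 0.36 on the log2 scale in the Smad2 knockout (edgeR adjusted p = 0.00564). Its fall of 1.62 ± 0.36 in the double knockout (log2 -1.62, adjusted p = 0.0108) was lost without double knockout replicate 1 (adjusted p = 0.0999). Itga1 was at 5.03 and 3.83 CPM in WT day 4, 1.19 and 1.11 in the Smad2 knockout, 1.75 and 1.60 in the Smad3 knockout and 1.52 and 1.51 in the double knockout, below WT in all 6 knockout libraries. It fell by 1.94 ± 0.35 in the Smad2 knockout (adjusted p = 0.00407), a call lost when length and GC content were corrected. Its fall in the double knockout (log2 -1.55 ± 0.35, adjusted p = 0.0115) was lost without WT day 4 replicate 1 or either double knockout library (adjusted p up to 0.0823). Itgb7, known from leukocytes, fell from 27.5 and 30.0 CPM at day 0 to 1.33 and 2.14 in WT day 4, the largest drop among these integrins (log2 -4.05 ± 0.44, adjusted p = 0.000152), and was between 1.71 and 7.36 in the knockouts.

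Whether the loss of Smad2 acts alike with and without Smad3 was tested as an interaction, (double knockout minus Smad3 knockout) minus (Smad2 knockout minus WT). It was called for 15 of the 79 genes, 8 positive and 7 negative, or 19.0%, beside 18.9% of all genes tested, 11.3% positive and 7.52% negative. Corrected for length and GC content, 5 were positive and 15 negative, with Nid1, Itgb3 and Itga1 no longer called, and library totals gave 10 and 5. With neither change of scaling, the positive ones were basement membrane and receptor genes (Lama1, Lamc1, Col4a1, Col4a2, Nid1, Itga1, Itga6, Itgb3), and 4 of the 7 negative ones were fibrillar collagens (Col1a1, Col1a2, Col5a1, Col5a2). For Lama1 the interaction was 3.99 ± 0.27 on the log2 scale (edgeR adjusted p = 0.000929) and for Col1a2 -3.09 ± 0.34 (adjusted p = 0.00243), and these 2 calls held in every alternative run. Loss of Smad2 thus went with lower Lama1 in WT cells (127 and 176 to 27.0 and 30.3 CPM) and with higher Lama1 in Smad3 knockout cells (62.4 and 66.4 to 201 and 186). Without WT day 4 replicate 2, 29 genes were called. Without double knockout replicate 1 or 2 there were 3 or 7, without Smad3 knockout replicate 1 or 2 there were 7 or 3, and 11 to 16 without any other 1 library.

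Genes that process, bind or read the matrix were taken from 5 lists. Beside their counts stand the shares of all genes tested, which for the Smad2 knockout were 15.4% higher and 20.1% lower, for the double knockout 10.8% and 12.3%, and for the double against the Smad2 knockout 20.5% and 19.1%. Of 28 tested genes of collagen synthesis and cross-linking, 7 rose and 4 fell in the Smad2 knockout and 5 and 4 in the double knockout. Bmp1, which cleaves the ends of procollagen, went from 4.21 and 8.20 CPM in WT to 32.8 and 28.0 in the Smad2 knockout (log2 2.29 ± 0.31, edgeR adjusted p = 0.00138). Of 24 integrin adaptors and focal adhesion genes, 4 rose and 6 fell in the Smad2 knockout, 7 and 1 did in the double knockout, and 12 were higher and 2 lower in the double than in the Smad2 knockout. Vcl (vinculin) was at 133 and 140 CPM in WT day 4, 27.1 and 36.9 in the Smad2 knockout, 202 and 199 in the Smad3 knockout and 125 and 120 in the double knockout, and the fall in the Smad2 knockout was 2.10 ± 0.31 on the log2 scale (log2 -2.10, adjusted p = 0.00196). Tns1 (tensin-1) was at 48.4 and 43.1 CPM in the double knockout and at most 10.0 in the other libraries (2.83 ± 0.29 above WT, adjusted p = 0.000233).

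Of 11 other matrix receptors, 3 rose and 1 fell in the Smad2 knockout and 3 rose and 3 fell in the double knockout. There Ddr2, a receptor for fibrillar collagen, was at 10.7 and 12.7 CPM against 0.640 and 0.689 in WT (log2 4.13 ± 0.54, edgeR adjusted p = 0.000838). Of 21 tested genes for other matrix proteins, 4 rose and 6 fell in the Smad2 knockout and 4 rose and 5 fell in the double knockout, with Fras1, a protein of embryonic basement membranes, down in both, from 15.0 and 16.7 CPM to 5.53 and 3.78 and to 3.78 and 4.04. Of 15 proteases and inhibitors, 4 rose and 4 fell in the Smad2 knockout and 1 rose and 3 fell in the double knockout. Adamts9, a protease of the embryonic matrix, was at 154 and 126 CPM in WT day 4, 15.9 and 9.07 in the Smad2 knockout, 57.6 and 55.0 in the Smad3 knockout and 58.9 and 57.2 in the double knockout. It fell by 3.49 ± 0.26 in the Smad2 knockout (log2 -3.49, adjusted p = 0.000234).

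Markers of cell types moved with these groups. The summed level of 17 extraembryonic endoderm markers was 40.1 to 45.1 CPM at day 0, 1370 to 1510 in WT day 4, 201 to 229 in the Smad2 knockout, 932 to 944 in the Smad3 knockout and 290 to 367 in the double knockout. In the Smad2 knockout 15 of the 17 fell, and in the double knockout 11 fell and 1 rose, beside the shares of all genes given for the 5 lists above. The sum therefore went with Lama1, Col4a1 and Lamc1 in the Smad2 knockout. It was also below WT in the double knockout, where Col4a5, Col4a6 and Fras1 fell and Nid1 rose. Lama1 and Col4a1 lay above the mean of WT there but were not called. The sum of 16 trophoblast markers was 212 to 232 at day 0, 450 to 634 in WT day 4, 2060 to 3050 in the Smad2 knockout, 756 to 939 in the Smad3 knockout and 2620 to 3250 in the double knockout, and 14 of the 16 rose in each of the Smad2 and double knockouts, in which Itgb3, Itga7, Col3a1 and Col6a1 also rose. Tpbpa and Prl3d1 were at 0 in the other 3 groups, and Eomes fell in both the Smad2 and the double knockout. The sum of 12 fibroblast markers was 65.1 to 134 in WT day 4 and 94.3 to 112 in the Smad2 knockout, an overlap, beside the fibrillar collagens that rose there. It was 85.4 to 92.0 at day 0, 125 to 148 in the Smad3 knockout and 90.4 to 108 in the double knockout. Lum and Fap were at 0 in WT day 4. Of 11 tested, Lum, Postn and Twist2 rose in the Smad2 knockout and Dcn and Thy1 fell, with a median log2 fold change of 0.83. Blood and endothelial markers summed to 69.9 to 81.1 at day 0, 32.4 to 33.4 in WT day 4 and 31.3 to 40.3 in the Smad2 knockout. They came to 32.1 to 34.4 in the Smad3 knockout and 73.5 to 95.5 in the double knockout, beside the rise of Itgb3. The double knockout's range overlapped that of day 0, where Itgb3 was at 4.00 and 4.92 CPM. Ptprc, Gp1bb, Hbb-bh1 and Hba-x were at 0 in WT day 4. Of 9 tested, Cdh5 and Gata1 rose in the double knockout and Lmo2, Tal1 and Runx1 fell, with a median of -0.15.

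The sum of 10 primitive streak and mesoderm markers was 402 to 430 CPM in WT day 4, 18.2 and 173 in the Smad2 knockout libraries, 216 to 250 in the Smad3 knockout and 15.4 to 19.4 in the double knockout. Of 9 tested, 2 fell in the Smad2 and 5 in the double knockout, and none rose in either. Of 10 surface ectoderm markers, 8 rose and 1 fell in the double knockout. Their sum was 259 to 331 CPM in WT day 4 and 289 to 337 in the double knockout, an overlap. Counts from ribosomal protein genes were 5.66% and 6.66% in WT day 4, 13.2% and 12.37% in the Smad2 knockout, 7.75% and 7.56% in the Smad3 knockout and 6.48% and 5.94% in the double knockout. What these cell types and that share contribute to each change was not tested.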

How the data were processed

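RNA of 10 libraries in 5 groups of 2 was analysed. The other 14 samples of the series, from chromatin immunoprecipitation, were not analysed here. The authors deposited 1 gene table per library with RSEM's expected counts, TPM, FPKM and transcript lengths, per the file headers. The expected counts are estimates of reads per gene that need not be whole, the deposited TPM sums to the same total in every library, and FPKM, also by the authors, was left aside. RSEM, STAR, Bowtie2, HOMER, FastQC 0.11.5 and mm10 are named in the submitters' processing notes. Strand use in counting was not stated there, and values of overlapping genes are uncertain.

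Gene IDs were matched to GENCODE M21 (53274 without version, 105 unmatched). Rounded counts were tested with edgeR 4.0.16 in R 4.3.3 (TMM, filterByExpr, quasi-likelihood F test, 1 fit of the 5 groups, 5 residual degrees of freedom). Adjusted p-values are Benjamini-Hochberg over 19470 genes. DESeq2 1.42.0 and limma 3.58.1 on log2(TPM + 1) and log2(TPM + 0.1) were alternatives, with other scalings, filters, blocks, a correction for length and GC content, and each library left out. Tested on data simulated for Smad2 knockout against WT (19470 genes), the fit called 12% of changes of 2-fold and 79% of those of 4-fold. The genes, their lists and tests were chosen with earlier results of these data known. The text follows a panel of 21 genes and, per comparison and family, names up to 3 called genes in each direction with the largest changes and at least 1 CPM. Col4a4, Col12a1, Col14a1, Col24a1 and Col28a1 were named outside that rule, after their values were seen. The values of 1 gene are not reported here, and it stays in the counts.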

Additional observations from a re-analysis of the deposited data

Results flagged for a closer look

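The effect of Smad2 loss differed between Smad3 knockout and WT cells, by edgeR's interaction test over all genes, for 15 of the 79 matrix and integrin genes tested. These were 19.0%, beside 18.9% of all genes tested, so the share is close to the background. Values, given for 14 of the 15, are log2 differences ± standard error, Smad2 loss in the Smad3 knockout minus Smad2 loss in WT. Of basement membrane genes, Lama1 was at 3.99 ± 0.27 (edgeR adjusted p = 0.000929), Lamc1 at 1.76 ± 0.33, Col4a1 at 2.59 ± 0.52, Col4a2 at 2.23 ± 0.55 and Nid1 at 1.39 ± 0.33. Of fibrillar collagens, Col1a1 was at -3.72 ± 0.76, Col1a2 at -3.09 ± 0.34 (edgeR adjusted p = 0.00243), Col5a1 at -1.83 ± 0.56 and Col5a2 at -3.16 ± 0.57. Col8a1 was at -3.30 ± 0.98 and Col12a1 at -2.86 ± 0.62. Of integrins, Itga1 was at 1.79 ± 0.49, Itga6 at 1.27 ± 0.26 and Itgb3 at 0.96 ± 0.29 (edgeR adjusted p = 0.0485). The calls of Lama1 and Col1a2 held when each of the 10 libraries was left out in turn. That of Itgb3 held in 1 of the 10, that of Col5a1 in 2, that of Itga1 in 3 and that of Col8a1 in none. Those of Lamc1, Col4a1, Col4a2, Nid1, Col1a1, Col5a2, Col12a1 and Itga6 were also lost without 1 or more of the libraries. The Col8a1 call was also lost with DESeq2, library totals, both blocks and the compared groups alone. With the length and GC correction Itga1 was at 0.58, and Itga1, Nid1 and Itgb3 were not called.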

How the results depend on the processing

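With 2 libraries a group the calls depended on settings and libraries. Over the alternatives that left out no library, directions held except on the TPM scale, where the median of all genes moved by 0.63 to 0.75 from day 0 to day 4 and by 0.65 to 0.76 between the double and the Smad2 knockout. There, with a pseudocount of 1 and 0.1, WT day 4 against day 0 gave 0.18 and 0.21 for Nid1, -0.56 and -0.57 for Lama5, 0.08 and 0.18 for Itgb3, -0.02 and -0.02 for Itgav, and 0.07 and 0.14 for Col1a2. The double against the Smad2 knockout gave 0.08 and 0.08 for Itgb5. With 1 library left out, Lama5 ran from -0.43 (without WT day 4 replicate 2) to 1.21 from day 0 to day 4. The causes were not tested.

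Called matrix and integrin genes came to 15 and 16 (day 4 against day 0), 18 and 18 (Smad2 knockout against WT), 0 and 0 (Smad3 knockout), 12 and 12 (double knockout) and 7 and 5 (double against Smad3 knockout) on the TPM scale with limma, where 40 of the genes passed the filter on mean TPM. With only the compared groups fitted they came to 19 (Smad2), 0 (Smad3) and 31 (double against Smad3), with 2461, 0, 2778 (double against WT) and 6498 (double against Smad3) of all genes. For the Smad3 knockout, library totals, no filter, a stricter filter, the block on table series, DESeq2 and the length and GC correction gave 5, 12, 5, 7, 14 and 10, and 191, 1096, 199, 278, 801 and 1067 of all genes, beside 54 with log2(TPM + 0.1). That pseudocount gave 2743 of all genes for the double knockout against WT and 1694 against the Smad3 knockout. The length and GC correction gave 38 (double against WT), 34 (double against Smad2) and 29 (double against Smad3, 5050 of all genes). No filter gave 29 (single knockouts compared), 36 (double against Smad2), 24 (double against Smad3) and 24 (interaction), library totals gave 29 for the single knockouts, and log2(TPM + 1) gave 5512 of all genes for the interaction.

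With 1 library left out, the range in all genes was 6504 to 10979 for day 4 against day 0, 4571 to 8864 for the Smad2, 3 to 2709 for the Smad3 and 2126 to 6051 for the double knockout against WT, 1898 to 8569 between the single knockouts, 3693 to 9485 and 1028 to 4409 for the double against the Smad2 and Smad3 knockouts, and 397 to 7003 for the interaction. Matrix and integrin genes ranged over 27 to 46, 22 to 45, 0 to 26, 13 to 39, 11 to 28, 12 to 33, 7 to 25 and 3 to 29 in that order.

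With the replicate number as a block, 46, 31, 2, 26, 19, 24, 14 and 16 matrix and integrin genes were called in that order, and 10357, 7206, 99, 4571, 6774, 7872, 3036 and 3775 of all genes. Same-numbered libraries deviated together with correlations of 0.11 to 0.51 among the other 4 groups and -0.18 to -0.04 with the double knockout, whose libraries both belong to the first table series. The labels do not say what a number shares, so the block was kept as an alternative. With the table series as a block, 46, 36, 7, 35, 23, 27, 19 and 18 of these genes were called in the same order.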
